A study of Homo sapiens with 3 samples.

Results

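PAX2, PAX8, LHX1, GATA3, SIX2, EYA1, SALL1 and WT1 are regulators of gene transcription that act while the kidney forms, and they were taken as a given set of 8 genes among the 61193 genes to which the deposited transcripts could be assigned. They were chosen by name to describe how much of a kidney programme HEK293T cells express, and the rule for choosing them used no measured value, although earlier results of these data were known. HEK293T is an established human embryonic kidney line that carries the large T antigen of SV40. Its RNA was sequenced in 3 replicates of 1 untreated condition, so no groups were compared. The cells were collected 24 h after seeding. QuantSeq 3′ mRNA libraries were made from total RNA by the protocol, although the molecule named in the sample labels is genomic DNA, and the values are read as RNA levels throughout.

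The kidney arises from intermediate mesoderm. PAX2, PAX8 and LHX1 act in this tissue and in the nephric duct that grows out of it, and GATA3 acts in the duct and the ureteric bud that branches to form the collecting system. SIX2, EYA1, SALL1 and WT1 act in the cap mesenchyme, the progenitor cells from which nephrons are made, and WT1 stays on in podocytes, the filtering cells of the glomerulus.

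The study asked how i-motifs and G-quadruplexes, the folded structures of C-rich and G-rich DNA, relate to transcription. The promoters of the 8 genes were therefore searched for at least 4 tracts of at least 3 Cs, or of at least 3 Gs, separated by 0 to 7 bases, on the strand of the gene as written. RefSeq windows on GRCh38.p14, from 250 bases before to 50 bases after the start, lay at the start of the canonical transcript for 5 of the genes. The C form was found in 4 of these 5 windows, those of PAX2, PAX8, GATA3 and WT1, and in 14.2% of all 35116 such windows. The G form was found in 1 of the 5, that of GATA3, and in 15.5% of all windows. The window of SIX2, the gene with the highest level of the 8, held neither with tracts of at least 3. With tracts of at least 2, all 5 windows held a match, that of SIX2 included. Of all windows, 67.9% then held the C form and 70.6% the G form. Such a match describes letters and does not show that a structure forms. The matches of the C form are shown 5′ to 3′ on the strand of the gene, with each tract in capitals, because they are the part of these promoters that the study's question bears on.
PAX2, chr10:100745346-100745388, plus strand, ending 193 bases before the start: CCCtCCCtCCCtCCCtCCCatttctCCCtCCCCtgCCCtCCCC
PAX8, chr2:113279010-113279034, minus strand, ending 88 bases before the start: CCCCttCCCgcaCCCCCCtgcaCCC
GATA3, chr10:8054447-8054466, plus strand, ending 221 bases before the start: CCCaCCCtgCCCgccgCCCC
WT1, chr11:32435687-32435708, minus strand, ending 147 bases before the start: CCCtcggaCCCgCCCtcaCCCC

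The match of PAX2 spanned 43 bases and was the longest of these 4, and that of GATA3 spanned 20 bases. Of the 4 genes with a match, GATA3, PAX2 and WT1 had counts and PAX8 had none. These windows lie at the start of the canonical transcript, which held 823 of the 842 counts of GATA3. The canonical transcripts of PAX2 and WT1 had no count, and the counts of both genes lay on other transcripts. Whether a match bears on the counts was not tested.

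Counts here are reads assigned to a transcript. TPM is the count divided by the length of the transcript and scaled so that each library sums to 1000000, and it was summed over the transcripts of a gene. Between 6262175 and 8521624 counts were deposited per replicate. Replicate 3 stood apart: 25.8% of its counts were mitochondrial, against 9.59% in replicate 1 and 5.70% in replicate 2. In replicate 3 the TPM of nuclear genes was also lower, with a median of 0.686 times the mean of replicates 1 and 2 over 5656 genes, and 0.996 times when mitochondrial genes were left out. A count of 0 allows up to 3 counts as a one-sided 95% limit, whereas the exact two-sided interval used below ends at 3.69. The 3 counts equal 0.427, 0.479 and 0.352 counts per 1000000 (CPM) in replicates 1, 2 and 3. These limits and the Poisson intervals below cover counting error only, because the reads carry no molecular identifiers and may be copies of one molecule.

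SIX2 and GATA3 had by far the most counts of the 8 regulators. Together SIX2 and GATA3 held 3414 of the 3663 counts of the 8 genes, or 93.2%. A mean TPM of at least 1 was reached by 6 of the 8 genes, against 21.7% of all genes and 38.2% of the 19926 protein-coding genes. Without replicate 3, or with mitochondrial genes left out, 7 of the 8 reached it, WT1 included. More than 3 counts in every replicate were found for 6 of the 8, against 39.5% of protein-coding genes. The 2 criteria did not pick the same 6 genes. EYA1 passed the first and not the second, WT1 the second and not the first, and PAX8 neither.

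**Figure D1:**
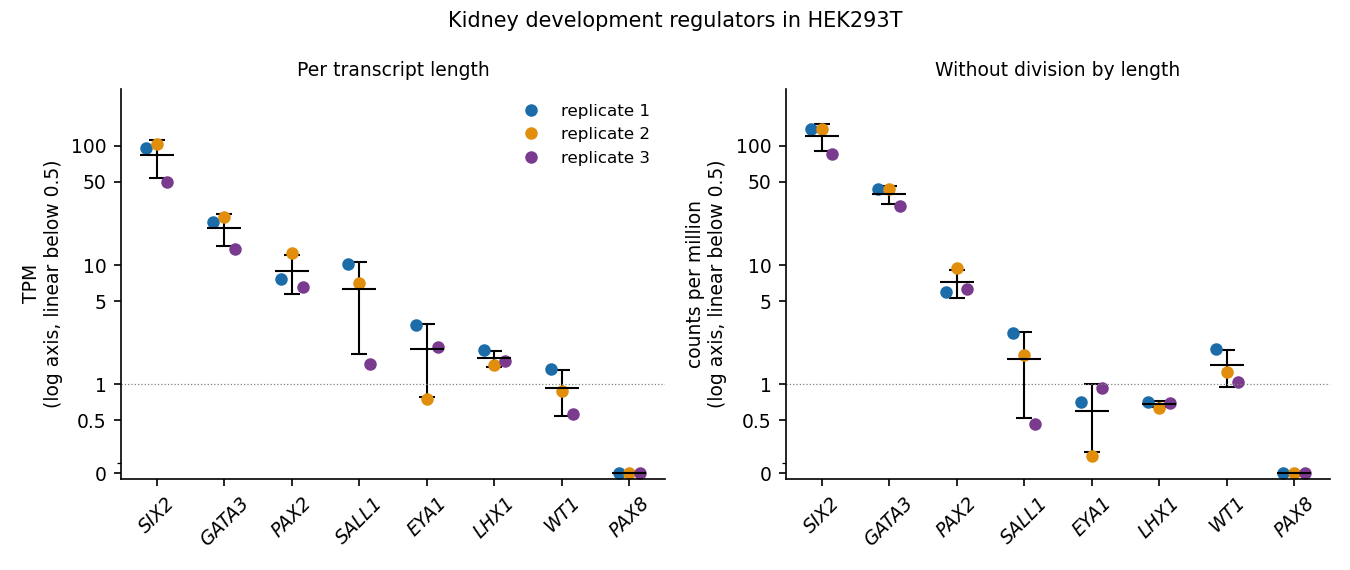
Level of each regulator in HEK293T, in TPM on the left and in CPM on the right, on log axes that are linear below 0.5. Points are the 3 replicates, bars show the mean and SD, and the dotted line marks a value of 1; SIX2 and GATA3 lie above all others on both scales and PAX8 lies at 0.

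SIX2, which keeps nephron progenitors from differentiating, had the highest level. Its TPM was 96.9, 103 and 49.5 in replicates 1, 2 and 3, from 970, 874 and 728 counts. The mean was 83.2 ± 29.4 TPM (SD, n = 3), which was above 94.9% of protein-coding genes. Replicate 3 was the lowest, at 0.494 times the mean of the other two, and at 0.717 times when mitochondrial genes were left out. Without replicate 3 the mean was 100.1 TPM. In bulk RNA, fewer cells that express a gene cannot be told apart from less RNA of it per cell. SIX2 has 1 listed transcript, on the minus strand of chr2:45005182-45009452, and no other listed transcript of that strand covers any of its 2206 bases.

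GATA3, which guides the nephric duct and is also known from T cells, was next. Its TPM was 22.9, 25.3 and 13.7 in replicates 1, 2 and 3, from 305, 271 and 266 counts. The mean was 20.6 ± 6.13 TPM (SD, n = 3), above 86.3% of protein-coding genes, and it was 24.1 TPM without replicate 3. Of its 842 counts, 823 lay on the canonical transcript and 19 on ENST00000643001, a protein-coding transcript that starts 9310 bases further upstream. Only 433 of the 3083 bases of the canonical transcript belong to no other listed transcript, but they include all of its last 300. The gene spans chr10:8045378-8075198 on the plus strand.

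PAX2, one of the earliest markers of the nephric lineage, was the third. Its TPM was 7.61, 12.7 and 6.62 in replicates 1, 2 and 3, from 42, 59 and 54 counts, with a mean of 8.96 ± 3.24 (SD, n = 3), above 79.5% of protein-coding genes. Replicate 2 was the highest, and replicates 1 and 3 lay close together. Of its 155 counts, 154 were on ENST00000483202, a transcript annotated as a retained intron, and 1 on a protein-coding transcript. None was on the canonical transcript, which has no base of its own. The retained intron transcript spans chr10:100746264-100749916 on the plus strand, and 1005 of its 1007 own bases lie in intron 1 of the canonical transcript. The gene spans chr10:100735396-100829944. The retained intron transcript ends 4334 bases after the canonical start, whereas the canonical transcript ends 84362 bases after it. The values of PAX2 in these tables are thus almost wholly those of this short transcript.

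SALL1, a zinc finger protein needed for the ureteric bud to invade the mesenchyme, had a TPM of 10.3, 7.05 and 1.47 in replicates 1, 2 and 3. These values came from 19, 11 and 4 counts, and the mean was 6.27 ± 4.46 TPM (SD, n = 3), above 76.7% of protein-coding genes. Replicate 3 was far below the others, at 0.170 times their mean, and at 0.244 times when mitochondrial genes were left out. The exact 95% Poisson interval of its 4 counts, 1.09 to 10.2, did not overlap that of the 19 in replicate 1, 11.4 to 29.7. Replicate 3 had the largest library total, but 25.8% of that total was mitochondrial, against 9.59% in replicate 1. All 34 counts of SALL1 were on ENST00000562674, a transcript of 407 bases with no defined coding sequence. Of its 302 own bases, 205 lie in intron 1 and 97 upstream of the canonical start. The canonical transcript, of 5146 bases, had no count and only 37 bases of its own. The gene spans chr16:51135982-51152334 on the minus strand. In CPM, without division by this short length, SALL1 was at 1.64 ± 1.12 (SD, n = 3).

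EYA1, a phosphatase and co-activator that works with SIX2 and its relatives, had 5, 1 and 8 counts in replicates 1, 2 and 3. Its mean was 2.00 ± 1.21 TPM (SD, n = 3), and replicate 2 fell within the limit that a count of 0 allows. The 14 counts were on 2 of its 24 listed transcripts, with 10 on ENST00000523327 and 4, all from replicate 3, on ENST00000523987. Neither has a defined coding sequence, and both lie wholly upstream of the canonical transcript, ending 187920 and 41371 bases before its start. No count was on a transcript annotated as protein coding. The gene lies on the minus strand of chromosome 8.

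LHX1, a LIM homeodomain protein of the intermediate mesoderm and nephric duct, had 5, 4 and 6 counts. Its TPM was 1.94, 1.45 and 1.58 in replicates 1, 2 and 3, with a mean of 1.66 ± 0.251 (SD, n = 3). The replicates lay close together, but with 15 counts in all their Poisson intervals ran from 1.09 to 13.1. ENST00000619297 held 14 of these counts. It has no defined coding sequence, starts 690 bases upstream of the canonical start, and has all 461 of its own bases there. The canonical transcript ENST00000614239 had counts of 0, 1 and 0, although 1675 of its bases, including all of its last 300, belong to no other listed transcript. Here, in contrast to PAX2, EYA1, WT1 and PAX8, the 3′ end was free to be counted, and counts on it stayed within the limit that a count of 0 allows. The gene spans chr17:36936785-36944612 on the plus strand.

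WT1, which acts in the mesenchyme and in podocytes, had 14, 8 and 9 counts in replicates 1, 2 and 3. Its TPM was 1.34, 0.877 and 0.569, with a mean of 0.928 ± 0.387 (SD, n = 3), and the mean was 1.11 TPM without replicate 3. All 31 counts were on 3 of its 22 listed transcripts, each annotated as a retained intron. ENST00000650745 had 6, 7 and 3 counts, ENST00000651794 had 8, 0 and 5, and ENST00000650861 had 0, 1 and 1. Their own bases lie in introns of the canonical transcript, which has none of its own and had no count. The gene spans chr11:32387775-32435564 on the minus strand.

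PAX8, the relative of PAX2 that acts beside it in the nephric duct and remains in tubule cells, was listed at 0 in all 3 replicates. It has 13 listed transcripts on the minus strand of chr2:113215997-113278921. Of its 9 protein-coding transcripts, 2 have bases of their own, and the canonical transcript has none. One of its retained intron transcripts, ENST00000485840, has 2081 own bases and also had no count. The 0 of PAX8 therefore does not bear on most bases of its coding transcripts.

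The order of mean TPM was SIX2, GATA3, PAX2, SALL1, EYA1, LHX1, WT1 and PAX8. SIX2 was 4.03 times GATA3, and GATA3 2.30 times PAX2, and in both pairs the replicate ranges did not overlap. PAX2 and SALL1, SALL1 and EYA1, and EYA1 and LHX1 overlapped in TPM and did not differ beyond their spread. In CPM, PAX2 lay above SALL1 in every replicate without overlap. LHX1 lay above WT1 in TPM without overlap. In CPM the order was reversed, also without overlap, with WT1 at 1.44 and LHX1 at 0.685 and WT1 higher in 3 of 3 replicates. EYA1 was last of the genes with counts on that scale, at 0.604 CPM. With 1 condition no test was made, and 3 replicates against 3 could not give an exact p below 0.1.

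The counts lay where transcripts do not share bases. Of the 84 listed transcripts of the 8 genes, 13 had counts, and the 40 without a base of their own had none. The same held across the whole table, where 0.640% of 76836 transcripts without own bases had a count, against 26.6% of 146722 transcripts with own bases. The setting used for reads that fall on several transcripts is not given in the sources used here. The last 300 bases of the canonical transcript, where 3′ libraries place their reads, belonged to 1 listed transcript alone in 3 of the 8 genes (SIX2, GATA3 and LHX1). They were shared throughout in PAX2, PAX8, EYA1 and WT1, and 12.3% of them were unshared in SALL1. Among protein-coding genes, more than 3 counts in every replicate were found for 56.3% of those with such an unshared end and for 26.1% of those whose end was shared throughout.

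**Figure D2:**
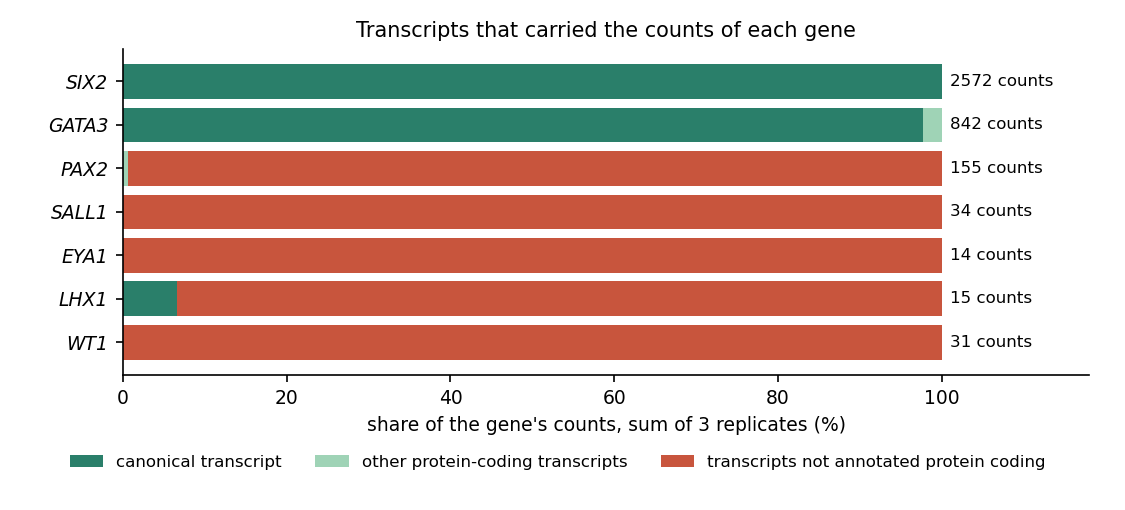
Share of the counts of each regulator, summed over 3 replicates, by the annotation of the transcript that held them, with the number of counts beside each bar. SIX2 and GATA3 were counted on their canonical transcript (2572 of 2572 and 823 of 842 counts), and the other 5 almost wholly on transcripts that are not annotated as protein coding; PAX8 had no count and is not drawn.

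Of the 7 regulators with at least 10 counts in all, 5 had over 90% of them on transcripts not annotated as protein coding, against 18.0% of 8979 protein-coding genes with as many counts. These 5 were PAX2, SALL1, EYA1, LHX1 and WT1. When only protein-coding transcripts were counted, 2 of the 8 genes, SIX2 and GATA3, had more than 3 counts in every replicate, against 32.1% of protein-coding genes counted in the same way. The same 2 genes reached 1 TPM, against 30.1%. On the canonical transcript alone 2 of the 8 had more than 3 counts in every replicate, against 24.9%. The shares of the 8 were thus near the background. These alternatives were chosen after the values were seen.

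**Figure D3:**
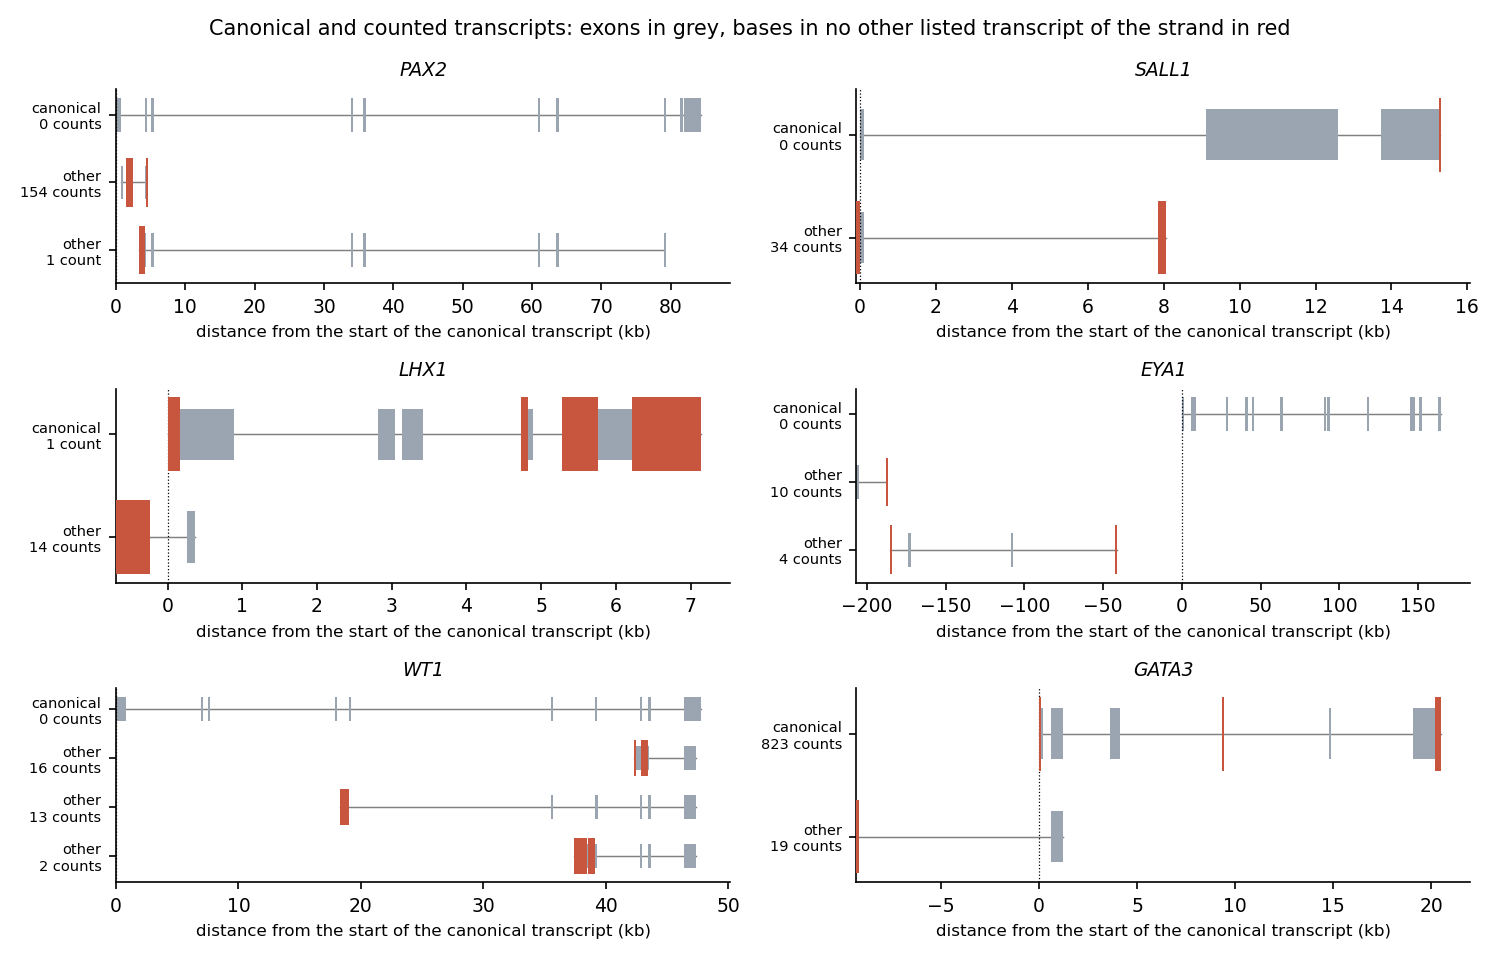
Canonical transcript and each other transcript with counts for 6 regulators, by distance in kb from the start of the canonical transcript. Grey boxes are exons, red boxes are bases in no other listed transcript of the same strand, and narrow boxes are widened to stay visible; in PAX2, SALL1, EYA1 and WT1, and in LHX1 apart from 1 count, the counted transcripts are not the canonical one, and their own bases lie in its introns or upstream.

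QuantSeq libraries are primed with oligo(dT), which can anneal to runs of A inside a transcript as well as to a poly(A) tail. The longest A run was therefore located in each transcript with more than 3 counts. The longest of all was in a protein-coding one, the canonical transcript of GATA3. It has 16 As within its own bases, 3011 bases before its end, and 4.32% of transcripts of like length hold a run as long. ENST00000643001 of GATA3 has a run of 8 As, with its like in 6.80%, and the transcript of SIX2 a run of 4, in 97.9%. The noncoding transcripts follow. ENST00000619297 of LHX1 holds a run of 13 As, within its own bases and 298 bases before its end, and 0.773% of transcripts of like length hold a run as long. The run of 8 As in ENST00000651794 of WT1 has its like in 21.4% of transcripts of similar length, and the run of 7 in ENST00000483202 of PAX2 in 21.5%. In ENST00000650745, which held the most counts of WT1, the longest run had 6 As, lay outside its own bases and had its like in 62.0%. Both transcripts of EYA1 had runs of 6 As, with their like in 17.5% for ENST00000523327 and 54.6% for ENST00000523987. In ENST00000562674 of SALL1 the longest run had 3 As. SALL1's transcript and both of EYA1 held AATAAA, the polyadenylation hexamer, in their last 40 bases. Those of PAX2, LHX1 and WT1 held neither it nor ATTAAA. Of the protein-coding transcripts with more than 3 counts, the canonical one of GATA3 held AATAAA. The transcript of SIX2, which had the most counts, and ENST00000643001 of GATA3 held neither hexamer. Whether reads began at these runs was not tested, since the tables hold no read positions. The runs of LHX1, PAX2, SALL1 and of ENST00000651794 of WT1 are shown in capitals within 30 bases of the transcript, 5′ to 3′. This lets the LHX1 run be compared with those of other noncoding transcripts.
LHX1 ENST00000619297, chr17:36937034-36937063, plus strand: aagaaaaacAAAAAAAAAAAAAggaaggag
WT1 ENST00000651794, chr11:32417012-32417041, minus strand: aatgaaaaaatAAAAAAAAgaaggcaggtg
PAX2 ENST00000483202, chr10:100747374-100747403, plus strand: gggagaagggagAAAAAAAtagagaaaaga
SALL1 ENST00000562674, chr16:51143334-51143363, minus strand: tccccatgctgggcAAAcaatgggaagcca

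Of the 19 annotated genes that overlap one of the regulators or lie within 5 kb of it, 4 had a mean count above 3. WT1-AS, a long noncoding RNA that runs antisense from the start of WT1, had 36, 40 and 21 counts in replicates 1, 2 and 3, more than WT1 itself in each of them. ENSG00000285367, antisense across the start of SALL1, had 26, 14 and 14 counts, also more than SALL1 in each replicate. LHX1-DT, which runs the other way from just upstream of LHX1, had 3, 7 and 7 counts, and ENSG00000231156, beside SIX2, had 1, 6 and 8. Whether the counting used strand is not given in the sources used here. No count of a regulator lay on a transcript that lacked bases of its own when both strands were considered. PAX8-AS1 had 0, 0 and 1 counts and GATA3-AS1 none; these last 2 were named after their values were seen.

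Other members of the same families were set beside the regulators. Of these 22, 8 had a mean TPM of at least 1, or 36.4%, beside 38.2% of all protein-coding genes. GATA2, better known from blood cell formation, was at 63.5 ± 15.4 TPM (SD, n = 3), above GATA3 in every replicate. SIX4 was at 37.6 ± 9.58 TPM and lay below SIX2 in every replicate. EGR1, the immediate early factor whose zinc fingers resemble those of WT1, was at 49.5 ± 22.4 TPM. It was highest in replicate 3, at 71.5 TPM, where SIX2 and GATA3 were lowest. SALL4 was at 1.08 ± 0.320 and EYA3 at 0.927 ± 0.306 TPM. PAX5, whose last 300 bases are shared throughout, had no count. LHX5 had 2 counts, both in replicate 2, although its last 300 bases are unshared. The median of the 22 was 0.245 TPM, beside 0.195 for all protein-coding genes.

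Of 37 other transcription regulators of the developing kidney, 17 had a mean TPM of at least 1, or 45.9%, beside 38.2% of all protein-coding genes. FOXC1, a forkhead factor of the early mesoderm, stood far above the 8 regulators, with 919, 1015 and 501 TPM in replicates 1, 2 and 3. UNCX followed at 121 ± 50.5 TPM and POU3F3, which acts in the forming loop of Henle, at 119 ± 32.2 (SD, n = 3). TFAP2A was at 51.2 ± 29.0 TPM. These 4 are genes of the kidney and also of other embryonic tissues. No count was found for 11 of the 37, beside 36.5% of all protein-coding genes. They include MEOX1, TCF21 and HOXA11, and in these 3 genes, named after their values were seen, the last 300 bases are unshared.

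Further genes of this list, also named after their values were seen, mark neighbouring compartments. FOXD1, which marks the stromal progenitors around the cap mesenchyme, was at 44.8 ± 16.1 TPM (SD, n = 3), with 13.5% of its counts on transcripts that are not protein coding. OSR1, an early marker of intermediate mesoderm, was at 1.31 ± 0.573 TPM, from 16, 10 and 9 counts. CITED1, found beside SIX2 in the least committed nephron progenitors, was at 3.43 ± 1.71 TPM, from 17, 25 and 16 counts.

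Of 23 signals and receptors of nephron and duct formation, 9 had a mean TPM of at least 1, or 39.1%, close to the 38.2% of all protein-coding genes. NOTCH2, a receptor used in nephron patterning, was at 42.8 ± 7.93 TPM (SD, n = 3). BMP7, a growth factor that maintains nephron progenitors, was at 28.2 ± 4.01 TPM. ITGA8, an integrin of the mesenchyme, was at 9.45 ± 1.84, WNT11, a signal of the ureteric bud tip, at 5.74 ± 0.545, and JAG1, a ligand of NOTCH2, at 4.94 ± 0.593 TPM. GDNF, its receptor RET and the co-receptor GFRA1, the signal that makes the ureteric bud grow, had no count in any replicate and were named after this was seen. In none of these 3 are the last 300 bases wholly unshared.

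**Figure D4:**
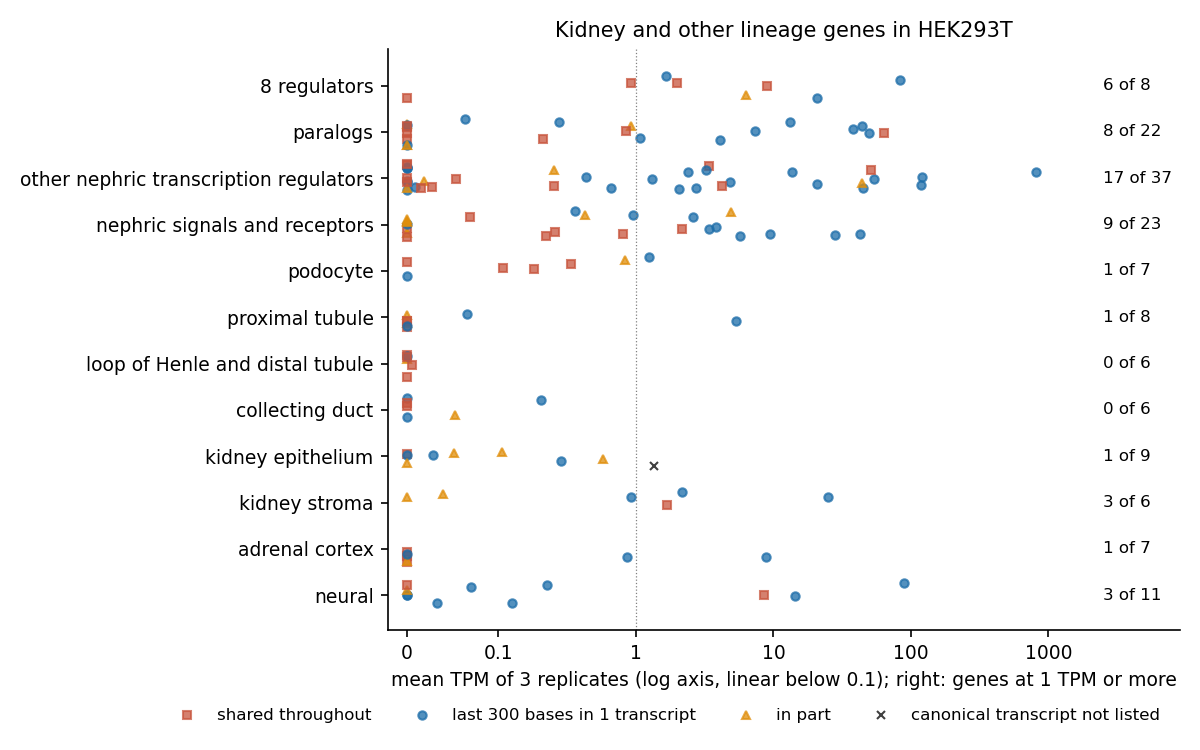
Mean TPM of 3 replicates for each gene of the lists, on a log axis that is linear below 0.1, with the number of genes at 1 TPM or more on the right. Symbols show whether the last 300 bases of the canonical transcript lie in 1 listed transcript alone; most genes of the nephron segments lie at 0, and 2 of 27 reach 1 TPM.

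Markers of the mature nephron were mostly without counts. Of 27 segment markers, 17 had no count, against 36.5% of all protein-coding genes. A mean TPM of at least 1 was reached by 2, against 38.2%, and 4 had more than 3 counts in every replicate, against 39.5%. LRP2, the endocytic receptor megalin of the proximal tubule, was at 5.34 ± 0.511 TPM (SD, n = 3), and SYNPO, an actin-binding protein of podocytes, at 1.25 ± 0.360. The 9 markers with an unshared 3′ end included 5 without a count and 2 with more than 3 counts in every replicate.

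By segment, 1 of 7 podocyte markers reached 1 TPM, and the slit diaphragm gene NPHS1 had no count. In the proximal tubule list 1 of 8 did, and SLC34A1, SLC5A2, SLC22A6 and SLC22A8, transporters of the tubule brush border and base, had no count. In the loop of Henle and distal tubule list 0 of 6 did, with UMOD, SLC12A3, CALB1 and CLDN16 at 0. In the collecting duct list 0 of 6 did, with AQP2, AQP3, SCNN1G and AVPR2 at 0. Of these markers at 0, NPHS1, CLDN16, AQP2 and SCNN1G have their last 300 bases unshared. In the others named here at 0 these bases are shared throughout or nearly so. SLC13A1 of the proximal tubule list, named after its values were seen, has an unshared end and also had no count. The summed level of a list ranged over replicates from 2.06 to 3.47 TPM for podocytes and from 5.04 to 6.05 TPM for the proximal tubule. It ranged from 0 to 0.0174 TPM for the loop and distal tubule and from 0 to 0.492 TPM for the collecting duct.

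Of 9 genes of kidney epithelia 1 reached 1 TPM, or 11.1%, beside 38.2% of all protein-coding genes. The summed level was 1.50 to 2.85 TPM. The gene at 1 TPM or more was KRT8, at 1.35 ± 0.433 TPM (SD, n = 3), while CDH16, CDH6 and KRT18 had no count. KRT18, the keratin that pairs with KRT8, has only part of its last 300 bases unshared, CDH16 has none and CDH6 has all.

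Of 6 genes of kidney stroma 3 reached 1 TPM, or 50%, beside 38.2% of all protein-coding genes. The summed level was 28.1 to 30.8 TPM. COL1A1 made up most of it, at 24.8 ± 0.330 TPM (SD, n = 3), followed by PDGFRA at 2.16 ± 0.297 and COL3A1 at 1.68 ± 0.935.

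HEK293T cells have been discussed as cells of adrenal or neural origin within the embryonic kidney tissue, so these lists were read in the same way. Of 7 genes of the adrenal cortex 1 reached 1 TPM, or 14.3%, beside 38.2% of all protein-coding genes. It was NR0B1, at 8.90 ± 4.42 TPM (SD, n = 3). NR5A1, its partner, and the steroid enzymes CYP11A1, CYP17A1 and CYP21A2 had no count. The last 300 bases of these genes are shared throughout or nearly so. MC2R of this list, named after its values were seen, has an unshared end and also had no count. The summed level of the list was 4.14 to 13.0 TPM. STAR, which carries cholesterol into mitochondria for steroid synthesis, had 7, 9 and 7 counts and a mean of 0.864 ± 0.607 TPM, and was named after its values were seen. Of 11 neural genes 3 reached 1 TPM, or 27.3%, also beside 38.2%. The median of the 11 was 0.0701 TPM, beside 0.195 for all protein-coding genes. The summed level was 77.5 to 134.7 TPM, most of it from SOX2. SOX2, a factor of neural and other stem cells, was at 89.0 ± 26.3 TPM and SYP, a synaptic vesicle protein, at 14.3 ± 2.11. PAX6 was at 8.52 ± 5.39 TPM, and 98.1% of its counts were on transcripts not annotated as protein coding, as with PAX2. SOX1, ELAVL4 and SNAP25 had no count, and of these only SOX1 has its last 300 bases wholly unshared.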

How the data were processed

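HEK293T RNA was measured in 3 replicates, described as independent biological replicates in the study. Per the submitters' processing notes, Trimmomatic 0.38.0, HISAT2 2.2.1 and featureCounts 2.2.1 were used with hg38; strand and overlap settings are not given in the sources used here. Whole-number read counts per transcript, not normalized, were deposited by the authors. The TPM deposited by the authors is this count divided by the transcript length and scaled to 1000000 per library. The transcript length deposited by the authors is in bases. Division by length lowers long transcripts in 3′ libraries.

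Of 247541 deposited transcripts, 223558 matched GENCODE v44 without version, in 61193 genes, and the other 23983 stayed in library totals only. The deposited length equalled the annotated one for 94.0% of those matched. Count and TPM were summed per gene. Own bases are exonic bases in no other listed transcript of the strand. Library totals of 6262175 to 8521624 set the precision. Counts have exact 95% Poisson intervals.

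The regulators and gene lists were chosen with earlier results of these data known. Named beside the 8 regulators were the highest paralog of each family, the 5 highest genes of both nephric lists, markers at 1 TPM or more, up to 4 markers at 0 in list order, and nearby genes with a mean count above 3; others are marked. Some genes that this rule takes are not reported here by name, but they stay in the counts and sums of their lists. Alternatives were other thresholds, CPM, mitochondrial genes left out, the median of replicates, other pseudocounts, and each replicate left out. Promoter sequences came from RefSeq (GRCh38.p14) and transcript sequences from GENCODE v44. Scripts were tested on simulated data. Python 3.11.15, numpy 2.4.6, pandas 2.3.3, scipy 1.17.1 and matplotlib 3.10.9 were used.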

Additional observations from a re-analysis of the deposited data

How the results depend on the processing

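No paired analysis was possible because all 3 replicates belong to 1 condition. Among alternative values of levels, order and counts of genes, 124 were classed as unchanged and 36 as moved. Unchanged meant within the spread between replicates for a level, or within 1.5 times the count. An order in which 6 of the 8 genes kept their places was also classed as unchanged. The 124 include the levels of PAX8 in TPM and CPM, which were 0 in each alternative. Without division by length the levels were 121 CPM for SIX2, 39.3 for GATA3, 1.64 for SALL1, 1.44 for WT1, 0.685 for LHX1 and 0.604 for EYA1. With mitochondrial genes left out they were 28.0 TPM for GATA3, 12.2 for PAX2 and 2.35 for LHX1. Of the 8 regulators, 3 had at least 10 counts in every replicate. When only protein-coding transcripts were counted, 2 had more than 3 counts in every replicate, against 32.1% of protein-coding genes. On the canonical transcript alone 2 did, against 24.9%. On protein-coding transcripts 2 reached 1 TPM, against 30.1%. SIX2, GATA3, PAX2 and SALL1 kept the first 4 places of the order in CPM, with mitochondrial genes left out, by the median of replicates and without each replicate in turn; the order was not computed on protein-coding or canonical transcripts alone. In CPM, EYA1 and WT1 exchanged places. Leaving out replicate 1 exchanged EYA1 and LHX1.

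A mean TPM above 0 was found for 13 paralogs, 26 other nephric regulators, 16 signals and receptors, 5 podocyte, 2 proximal tubule, 1 loop and distal tubule, 2 collecting duct, 6 epithelial, 5 stromal, 2 adrenal and 7 neural genes. At 0.5 TPM the podocyte, epithelial and adrenal lists each had 2 genes, and at 2 TPM the podocyte and epithelial lists had 0. With 1 CPM as the threshold, or with mitochondrial genes left out, the podocyte and adrenal lists each had 2. Leaving out 1 replicate gave 1 to 2 podocyte and 1 to 2 adrenal genes. The log2 level with a pseudocount of 0.1 moved to 0.80 for LHX1, -0.03 for WT1 and -3.32 for PAX8. Depth limits values near 3 counts per replicate. PAX2, PAX8, EYA1 and WT1 also have last 300 bases that are shared throughout, and the part of this sharing in their values was not tested.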
